A study of Mus musculus with 10 samples.

Results

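The genes of major histocompatibility complex (MHC) class II antigen presentation were examined in mouse skin under systemic baricitinib, which inhibits the kinases JAK1 and JAK2. The list held 10 genes: the classical chains H2-Aa, H2-Ab1 and H2-Eb1, the peptide editors H2-DMa, H2-DMb1, H2-Oa and H2-Ob, the invariant chain Cd74, the transactivator Ciita and the protease Ctss. Every probe set (a group of short probes that together read 1 transcript) whose platform annotation gave exactly 1 gene symbol from this list was taken, whatever its value. This gave 17 probe sets of 9 genes among 45037 probe sets tested, which name 18193 genes. H2-DMb1 had no probe set under its own symbol alone, so it is not reported.

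C3H/HeJ mice free of disease were grafted with skin from an alopecic C3H/HeJ donor, a procedure that transfers alopecia areata (AA) to the recipient. An osmotic pump placed at grafting delivered baricitinib to 5 mice and vehicle to 5 mice, and a skin biopsy of each mouse was taken at week 12 and run on 1 array. All 10 mice carried a graft and a pump, so vehicle is the only control and no ungrafted skin was analysed here. The arrays are called B1 to B5 (baricitinib) and V1 to V5 (vehicle) by the replicate number in their titles. All values are log2 expression values, and differences are baricitinib minus vehicle, and -1 therefore stands for a halving.

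Class II molecules are pairs of an alpha and a beta chain that carry peptides from engulfed proteins to the cell surface for CD4+ T cells. New pairs assemble on the invariant chain, which blocks the groove until lysosomal proteases trim it to a short remnant, and H2-DM then exchanges that remnant for peptide under restraint by H2-O. Dendritic cells, Langerhans cells, macrophages and B cells can express the class II chains. Interferon gamma can turn these chains on in other cells, keratinocytes included, through JAK1, JAK2 and the transactivator CIITA. CIITA does not bind DNA itself. It is held at class II promoters by factors bound to a conserved pair of elements, the X box and the Y box.

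These elements are shown because CIITA acts through them and because several of the members carry them just upstream of the gene. Promoter windows of 250 bases before to 50 after each start site were taken from RefSeq (assembly GRCm38.p6, the C57BL/6J reference rather than C3H/HeJ). They matched 7 of the 10 genes with 8 promoters and held no entry for H2-Ab1, Cd74 and Ciita. Capitals mark an X box core (CNNGNAAC) followed by a Y box core (TGATTGG), or in Ctss an interferon response element core (GAAA, any 2 bases, GAAA). Sequences run 5′ to 3′ on the gene's strand.
H2-Aa, chr17:34287847-34287927, minus strand: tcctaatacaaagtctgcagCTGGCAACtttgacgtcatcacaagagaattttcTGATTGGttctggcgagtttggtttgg
H2-Eb1, chr17:34305753-34305832, plus strand: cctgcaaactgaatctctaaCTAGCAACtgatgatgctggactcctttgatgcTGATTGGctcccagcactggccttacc
H2-Oa, chr17:34092280-34092360, plus strand: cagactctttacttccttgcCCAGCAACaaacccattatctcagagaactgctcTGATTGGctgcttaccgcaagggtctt
H2-Ob, chr17:34238795-34238872, plus strand: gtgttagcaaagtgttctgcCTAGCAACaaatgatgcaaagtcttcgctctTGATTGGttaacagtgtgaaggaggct
Ctss, chr3:95526745-95526794, plus strand: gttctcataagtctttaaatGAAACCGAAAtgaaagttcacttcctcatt

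Both strands were searched, and the letters were chosen after these promoters had been read. The X core alone was found in 39.1% of 32851 promoters and the Y core alone in 7.82%. The 2 cores in this order, 15 to 35 bases apart, were found in 52 promoters (0.158%), of which 5 belonged to H2-Aa, H2-DMb1, H2-Eb1, H2-Oa and H2-Ob. Between 23 and 26 bases separated the cores in the 4 promoters printed, and the X core began 79 to 94 bases before the start site. H2-DMa had the X core without the pair, and Ctss had neither core. The Ctss promoter was the only one of the 8 with the interferon response element core, which 3.44% of all promoters held. These are letter matches and not measured binding sites. Of the 10 genes, 7 lie on chromosome 17, in the class II region, whereas Ciita, Cd74 and Ctss lie on chromosomes 16, 18 and 3.

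Array quality differed among the vehicle arrays. Any 2 of 9 arrays correlated with r of 0.946 to 0.994, whereas V5 correlated with the others at 0.697 to 0.729. RNA quality was read as the 3'/5' gap, the excess of 3' over 5' signal for Gapdh and beta-actin, which is wider in degraded or short RNA. It was 0.99 to 1.18 log2 on the baricitinib arrays. On V1 to V5 the gap was 3.03, 2.0, 4.35, 1.01 and 4.06, so that V4 alone among vehicle arrays matched the baricitinib arrays. According to the methods, 1 vehicle array failed quality control and was removed, but the labels do not name it. Every difference was therefore taken over all 10 arrays and again without V5. In bulk skin, fewer cells of a type and less RNA per cell cannot be told apart.

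No class II probe set passed the adjusted threshold between baricitinib treated and vehicle control skin, and the genes did not all lie on 1 side. In limma's test across all probe sets, 0 of the 17 passed an adjusted p of 0.05, with all arrays or without V5, against 0% of all probe sets tested in both fits. Their adjusted p ran from 0.221 to 0.825, and from 0.0733 to 0.989 without V5. At an unadjusted p under 0.05, 3 were lower under baricitinib and 0 higher, beside 5.62% and 9.21% of all probe sets. Without V5 the counts were 7 and 0, beside 13.5% and 14.4%. The median difference over the 17 was -0.26 (-0.39 without V5), beside -0.07 (-0.04) over all probe sets. Negative differences were found for 10 of 17 (13 without V5), beside 55.4% (54.9%). By each gene's brightest probe set, Ctss and the transactivator Ciita had the most negative differences without V5 (-1.14 and -0.99), while Cd74 and H2-Eb1 were at -0.12 and 0.05.

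**Figure D1:**
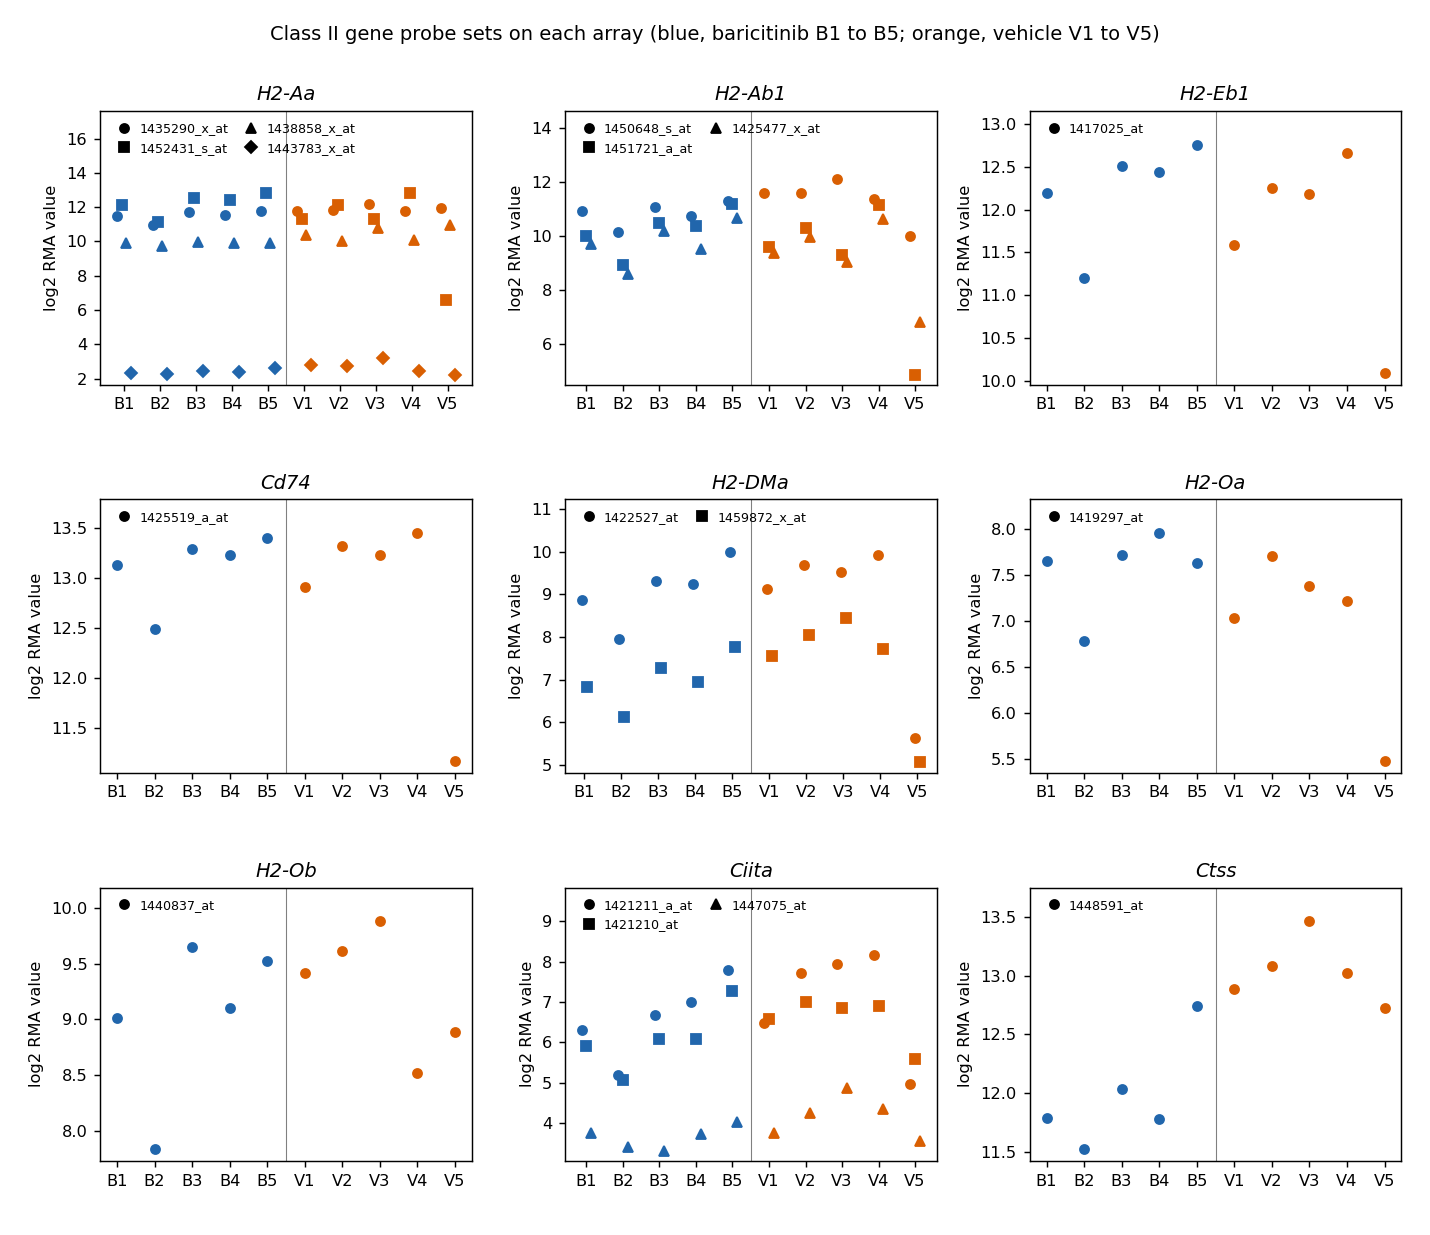
Log2 RMA value of each class II probe set on each array, with baricitinib arrays B1 to B5 in blue, vehicle arrays V1 to V5 in orange, and 1 marker shape per probe set. The Ctss groups overlap only through B5 and V5 (11.52 to 12.74 against 12.72 to 13.46), and V5 is the lowest array for 11 of the 17 probe sets.

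The alpha chain gene H2-Aa was read by 4 probe sets, which did not give 1 answer. On the probe set 1435290_x_at, B1 to B5 were at 11.48, 10.98, 11.71, 11.52 and 11.76 and V1 to V5 at 11.77, 11.81, 12.18, 11.78 and 11.93. Every baricitinib array was below every vehicle array, by a mean difference of -0.40 (SE 0.18, adjusted p = 0.337 in limma). On 1438858_x_at the baricitinib arrays were at 9.90, 9.75, 9.97, 9.92 and 9.93 and the vehicle arrays at 10.38, 10.05, 10.78, 10.10 and 10.95. These groups did not overlap either, and the difference was -0.55 (SE 0.20, adjusted p = 0.273). They were the only 2 of the 17 probe sets without overlap over all arrays, beside 2.03% of all probe sets that lay wholly lower under baricitinib and 3.09% that lay wholly higher.

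The probe set 1452431_s_at placed H2-Aa otherwise. B1 to B5 were at 12.11, 11.12, 12.51, 12.39 and 12.85, and V1 to V5 were at 11.28, 12.12, 11.33, 12.84 and 6.57. V5 lay far below the rest, and V4 was level with the highest baricitinib array. The difference was 1.37 (95% confidence interval -0.90 to 3.63) and 0.30 without V5 (-0.61 to 1.21). The last probe set, 1443783_x_at, gave baricitinib values of 2.27 to 2.61 and vehicle values of 2.19 to 3.20, and only 2.09% of probe sets were dimmer by mean.

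For the beta chain gene H2-Ab1, 3 probe sets split in the same way. On 1450648_s_at, B1 to B5 were at 10.91, 10.14, 11.09, 10.73 and 11.32 and V1 to V5 at 11.61, 11.58, 12.12, 11.37 and 9.995. V1 to V4 lay above every baricitinib array and V5 below all of them, so that the difference was -0.50 over all arrays and -0.83 without V5 (SE 0.24, adjusted p = 0.0884). On 1451721_a_at, B1 to B5 were at 10.02, 8.92, 10.49, 10.39 and 11.18 and V1 to V5 at 9.59, 10.30, 9.30, 11.15 and 4.84. There the groups overlapped, with a difference of 1.16 that came to 0.11 without V5. The third probe set, 1425477_x_at, ran from 8.60 to 10.66 under baricitinib and from 6.81 to 10.62 under vehicle, and its difference of 0.58 was -0.01 without V5.

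H2-Eb1, the other beta chain gene, had 1 probe set, at 12.19, 11.21, 12.51, 12.44 and 12.75 in B1 to B5 and at 11.59, 12.25, 12.18, 12.66 and 10.10 in V1 to V5. The groups overlapped, and the difference was 0.46 (95% confidence interval -0.60 to 1.53), or 0.05 without V5 (-0.66 to 0.76).

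The invariant chain gene Cd74 was likewise on both sides. B1 to B5 were at 13.13, 12.49, 13.29, 13.23 and 13.40, and V1 to V5 were at 12.91, 13.32, 13.23, 13.45 and 11.17. Apart from V5 and B2 the arrays lay within 12.91 to 13.45, with no separation of the groups. The difference was 0.29 (95% confidence interval -0.63 to 1.22), and -0.12 without V5 (-0.55 to 0.32). At this precision a change in Cd74 by a fraction of a log2 unit in either direction could not be seen.

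Among the peptide editors, H2-DMa (the alpha chain of the exchange factor H2-DM) again depended on the probe set. On 1459872_x_at, B1 to B5 were at 6.83, 6.13, 7.26, 6.95 and 7.76 and V1 to V5 at 7.56, 8.04, 8.45, 7.71 and 5.06. On 1422527_at they were at 8.87, 7.94, 9.31, 9.24 and 9.999 and at 9.13, 9.68, 9.53, 9.91 and 5.63. V5 was the lowest array on both. B5 lay among V1 to V4 on 1459872_x_at and above all of them on 1422527_at, where B3 and B4 also lay above V1. The differences were -0.38 and 0.30 over all arrays, and -0.95 (SE 0.31, adjusted p = 0.104) and -0.49 without V5.

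H2-Oa and H2-Ob encode the chains of H2-O, the inhibitor of H2-DM. H2-Oa was at 7.65, 6.79, 7.72, 7.96 and 7.63 in B1 to B5 and at 7.03, 7.71, 7.38, 7.22 and 5.48 in V1 to V5. For H2-Ob the values were 9.01, 7.84, 9.65, 9.10 and 9.52 and then 9.41, 9.61, 9.88, 8.52 and 8.88. Both genes overlapped between groups, with B2 the lowest baricitinib array in each. The differences were 0.58 for H2-Oa (0.21 without V5) and -0.24 for H2-Ob (-0.33 without V5), and that of H2-Ob was 0.06 without B2.

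Ciita, the transactivator of class II genes, had 3 probe sets, and all 3 gave negative differences. On 1421211_a_at, B1 to B5 were at 6.31, 5.18, 6.68, 6.99 and 7.78 and V1 to V5 at 6.49, 7.73, 7.95, 8.15 and 4.97. V2, V3 and V4 lay close to or above the highest baricitinib array, B5, while V1 lay among the baricitinib arrays and V5 below them. The difference was -0.47 and, without V5, -0.99 (95% confidence interval -2.12 to 0.14, adjusted p = 0.227). On 1421210_at the baricitinib arrays were at 5.92, 5.08, 6.09, 6.08 and 7.27 and the vehicle arrays at 6.57, 6.99, 6.86, 6.90 and 5.59, a difference of -0.49 (-0.74 without V5). The dimmer 1447075_at ran from 3.31 to 4.04 and from 3.55 to 4.87, with a difference of -0.51 (-0.66 without V5). Without B2 the differences on 1421211_a_at and 1421210_at were -0.12 and -0.24. No Ciita probe set passed the adjusted threshold.

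Ctss encodes cathepsin S, the protease that makes the last cuts in the invariant chain in most antigen-presenting cells. It was at 11.79, 11.52, 12.03, 11.78 and 12.74 in B1 to B5 and at 12.89, 13.08, 13.46, 13.02 and 12.72 in V1 to V5. B5 lay just above V5, and every other baricitinib array lay below every vehicle array. Mean values were 11.98 ± 0.47 and 13.03 ± 0.27 (SD, n = 5 each), a 2.08-fold lower value under baricitinib. The difference was -1.06 (SE 0.24, 95% confidence interval -1.60 to -0.52, adjusted p = 0.221), and -1.14 without V5 (-1.66 to -0.61, adjusted p = 0.0733). It was the most negative of the 17 and did not pass the adjusted threshold. Without V5 the groups no longer overlapped for 4 of the 17 probe sets, all lower under baricitinib, beside 4.11% of all probe sets.

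**Figure D2:**
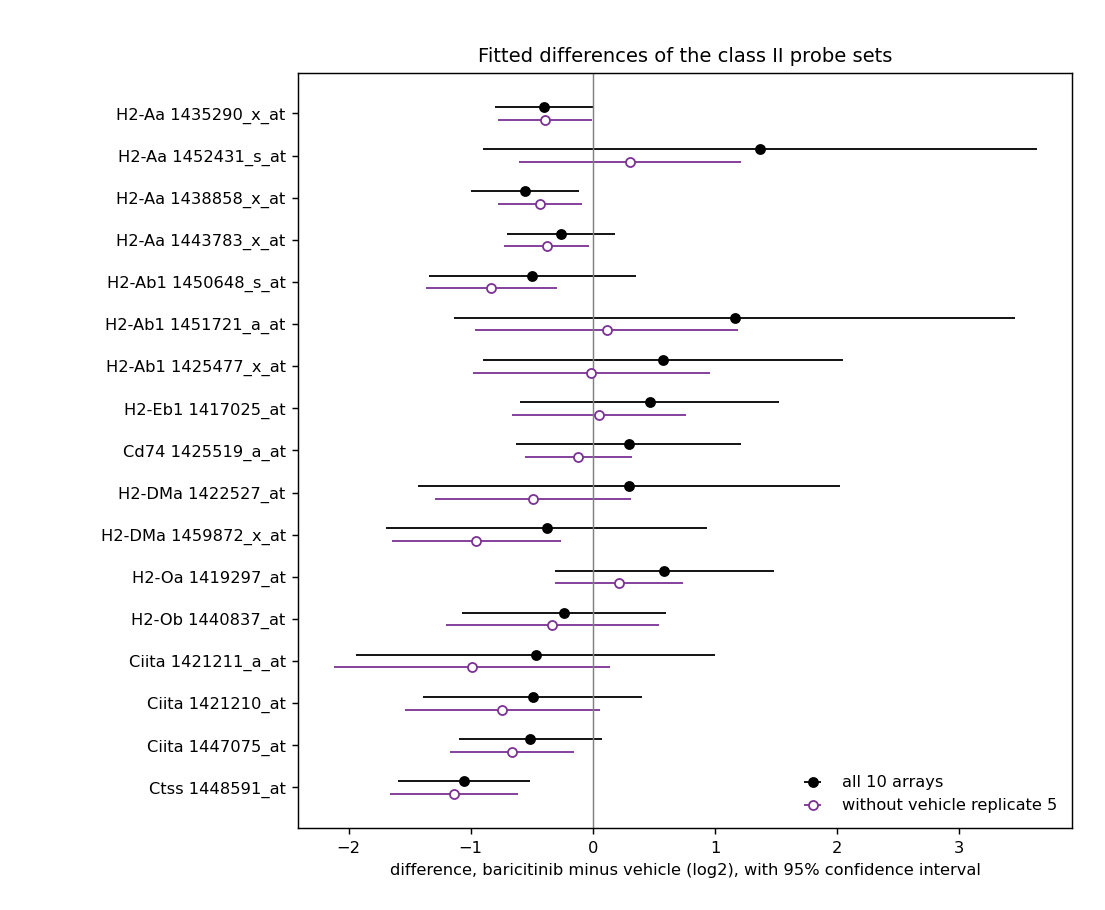
Fitted difference of each class II probe set (baricitinib minus vehicle, log2) with its 95% confidence interval. Filled points use all 10 arrays and open points the 9 arrays other than V5. Without V5 the intervals are narrower for most probe sets but wider for H2-Ob, and Ctss lies farthest below 0 at -1.06 and -1.14.

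How much the probe sets of 1 gene disagreed was itself measured. Opposite signs were found in 3 of the 4 members with more than 1 probe set (H2-Aa, H2-Ab1 and H2-DMa), and in 54.1% of 9010 such genes on the array. The spread of differences within a gene was 1.92 for H2-Aa and 1.66 for H2-Ab1, larger than in 97.6% and 94.6% of those genes. It was 0.68 for H2-DMa and 0.04 for Ciita, larger than in 52.4% and 2.82%. Without V5 the spreads of H2-Aa and H2-Ab1 were 0.73 and 0.95, larger than in 69.2% and 81.8%, while those of H2-DMa and Ciita were 0.46 and 0.33 (47.2% and 33.6%). Opposite signs then remained in 2 of the 4 members, H2-Aa and H2-Ab1, beside 54.4% of genes.

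In H2-Aa, H2-Ab1 and H2-DMa this disagreement moved with the 3'/5' gap across the vehicle arrays, and in Ciita it did not. The H2-Aa probe set 1452431_s_at minus 1435290_x_at was between 0.14 and 1.09 on the baricitinib arrays. It was 1.06 on V4 and 0.32 on V2, whose gaps were the narrowest of the vehicle arrays, but -0.49 on V1, -0.85 on V3 and -5.36 on V5. Thus V1, V3 and V5, the 3 arrays with the widest gaps, all lay below the baricitinib range. In H2-Ab1, 1451721_a_at minus 1450648_s_at was between -1.22 and -0.14 under baricitinib, -0.22 on V4, -1.28 on V2, -2.01 on V1, -2.82 on V3 and -5.15 on V5. H2-DMa also placed V4 with the baricitinib arrays, with 1422527_at minus 1459872_x_at at 1.82 to 2.29 under baricitinib, 2.20 on V4, 1.64 on V2, 1.57 on V1, 1.08 on V3 and 0.57 on V5. For Ciita, 1421211_a_at minus 1421210_at was 0.11 to 0.91 under baricitinib and -0.08, 0.74, 1.09, 1.25 and -0.62 on V1 to V5, so that V3, with the widest gap, and V4, with the narrowest vehicle gap, both lay above the baricitinib range. The part of RNA quality in the group differences was not tested. On V4, whose gap lay within the baricitinib range, Ciita 1421211_a_at (8.15) and Ctss (13.02) were above every baricitinib array, but Ciita 1421210_at (6.90) was below B5 (7.27). On the same array H2-Eb1 (12.66) and H2-Aa 1452431_s_at (12.84) lay within the baricitinib range, and Cd74 (13.45) lay just above its highest value (13.40). V4 was also above every baricitinib array on H2-Aa 1435290_x_at (11.78 against at most 11.76) and 1438858_x_at (10.10 against 9.97). The same held for H2-Ab1 1450648_s_at (11.37 against 11.32) and the dimmer Ciita 1447075_at (4.36 against 4.04). On all other member probe sets V4 lay within the baricitinib range.

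**Figure D3:**
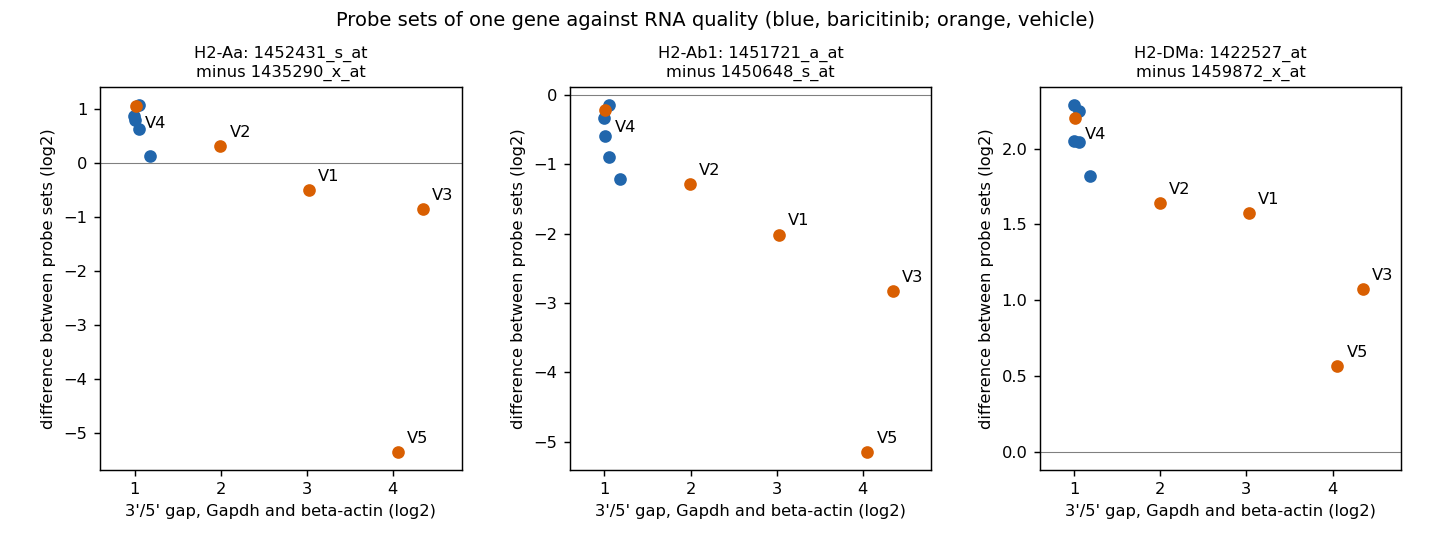
Difference between 2 probe sets of the same gene (log2, vertical) against the 3'/5' gap (log2, horizontal, from Gapdh and beta-actin) on each array, with baricitinib in blue and vehicle in orange. V4 sits with the baricitinib arrays (gap 1.01), and V1, V3 and V5 lie to the right and below them.

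The mice also differed within each group. B2 was the lowest baricitinib array for 16 of the 17 probe sets and B5 the highest for 14, while V5 was the lowest vehicle array for 14. As the median deviation from each probe set's mean, the members stood at -0.14, -0.78, 0.09, -0.04 and 0.44 on B1 to B5. On V1 to V5 they stood at 0.08, 0.50, 0.60, 0.52 and -1.78. The distance between B2 and B5 exceeded the median group difference of the members.

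The genes whose pattern was most like the class II pattern were found with group means removed, over the 9 arrays other than V5. The reference was the mean of H2-Aa, H2-Ab1, H2-Eb1 and Cd74, each by its brightest probe set, and 18184 genes were compared. The highest correlations were those of Dram1, an autophagy regulator (Pearson r = 0.991, Spearman rho = 0.967), the translation factor gene Eif4e3 (0.983 and 0.833) and Vsir, which encodes the checkpoint protein VISTA (0.977 and 0.967). 5430427O19Rik, Cd86 and A530088E08Rik followed at r of 0.971, 0.970 and 0.966. Cd86 encodes a costimulatory ligand of antigen-presenting cells. Without B2 and V1, the 2 arrays farthest from the median, r was 0.965 for Dram1, 0.919 for Eif4e3, 0.889 for Vsir, 0.950 for Cd86, 0.816 for 5430427O19Rik and 0.789 for A530088E08Rik. For these the group means still came from all 9 arrays, B2 and V1 included, and were not taken again. The correlations of the 6 genes are the highest of many, so they are a description.

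Upstream of Ciita, the interferon gamma axis gave 6 of 8 negative differences and a median of -0.17, and 0 of its genes passed the adjusted threshold. Ifng itself was at 4.09, 3.84, 3.89, 4.42 and 8.63 in B1 to B5 and at 8.33, 8.69, 8.72, 9.26 and 3.81 in V1 to V5. B5 lay with V1 to V4, and V5 lay with B1 to B4, on the gene for the cytokine that induces Ciita. V5 was also the lowest array for the protease gene Ctsd (7.41, against 11.43 to 12.44 on V1 to V4). The same held for the keratin gene Krt14 (10.91 against 12.81 to 13.15), but V5 was the highest array for the B cell gene Ms4a1 (7.27). Whether the low Ifng value of V5 belongs to the mouse or to array quality was not tested. The difference was -2.79 (SE 1.21, adjusted p = 0.327), and -3.78 without V5 (SE 0.91, adjusted p = 0.0760). Irf1, an interferon-induced activator of Ciita, was at 8.70, 8.14, 9.06, 9.73 and 11.33 and at 10.40, 10.99, 10.80, 11.42 and 8.63, with the same exchange of B5 and V5. Its difference was -1.05 (-1.51 without V5, adjusted p = 0.131).

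Other genes of the pathway gave counts in both directions, and 0 genes of any of these lists passed the adjusted threshold. For the factors that bind the class II promoter 1 of 7 differences was negative (median 0.32, or 0.14 without V5), with Rfxank at 0.72 (0.47) and Nfya at 0.52 (0.14). The negative one was Rfx5 at -0.41 (-0.43 without V5). These factors hold CIITA at the X and Y boxes. Of 9 lysosomal processing enzymes other than Ctss 2 were negative (median 0.12, or -0.15 without V5). Their largest values, 1.20 for the endopeptidase gene Lgmn and 1.01 for Ctsd, were 0.31 and 0.10 without V5. Both genes overlapped between groups with V5 left out, unlike Ctss.

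Genes of class II turnover were measured for 3 genes, of which 1 was negative (median 0.88, or 0.48 without V5). The negative one was Marchf1 at -0.14 (-0.62 without V5), with overlapping groups. Its other probe sets, 1440209_at and 1431367_at, gave -0.23 and -0.79 (-0.79 and -0.19 without V5). Marchf8 encodes a ubiquitin ligase that can remove class II from the surface. It was at 8.83, 8.65, 8.99, 8.67 and 8.46 in B1 to B5 and at 8.11, 8.03, 7.83, 8.38 and 6.45 in V1 to V5. Every baricitinib array was above every vehicle array, with a difference of 0.96 (0.63 without V5, adjusted p = 0.0738). Cd83, whose product opposes this ligation, had a difference of 0.88 (0.48 without V5) with overlapping groups.

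Of the other class II locus genes all 3 were negative (median -0.30, or -0.55 without V5), with H2-Eb2 at -0.40 and H2-DMb2 at -0.30. H2-DMb2 is a near copy of H2-DMb1, and another of its probe sets, 1419744_at, gave 0.95, so its direction is uncertain. Costimulatory ligands gave 4 of 5 negative differences (median -0.25, or -0.54 without V5), led by Cd40 (-0.98) and the checkpoint ligand gene Cd274 (-0.43, or -1.04 without V5). On the T cell side, 3 of 3 genes measured of 4 listed were negative (median -0.54, or -0.72 without V5). Among them Lag3, whose product binds class II, was at -0.84 and Cd3e, a T cell receptor subunit gene, at -0.54.

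Markers of the cells that carry class II did not move one way. Ptprc, the leukocyte marker CD45, was at 10.04, 9.24, 10.42, 9.98 and 10.76 in B1 to B5 and at 11.09, 11.30, 11.82, 10.81 and 10.80 in V1 to V5. The groups did not overlap, and the difference was -1.08 (SE 0.30, adjusted p = 0.229), beside -1.06 for Ctss. Among the baricitinib arrays B2 was the lowest and B5 the highest for Ptprc, as for most class II probe sets. Over all arrays B2 was the lowest for Ptprc, whereas V5 was the lowest for 11 of the 17 class II probe sets.

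Of 8 dendritic cell markers measured of 9 listed, 5 were negative (median -0.04, or -0.11 without V5). Itgax, which encodes CD11c, was at 7.22, 6.65, 7.77, 7.31 and 9.60 in B1 to B5 and at 9.24, 9.75, 10.27, 9.95 and 6.20 in V1 to V5, a difference of -1.37 (-2.09 without V5). B5 and V5 were exchanged here as for Ifng, with the same limit on V5. Cd209a, a lectin gene of a subset of dendritic cells, ran the other way. Its values were 7.41, 6.69, 7.88, 6.44 and 6.34 and then 4.13, 4.77, 3.91, 4.96 and 4.83. The groups were far apart on every array, V4, V5 and B5 included, with a difference of 2.43 (SE 0.34, adjusted p = 0.221, and 2.51 with 0.0733 without V5).

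Langerhans cells are the class II carriers of the epidermis. Their marker Cd207 was at 8.94, 7.72, 9.56, 9.17 and 8.92 in B1 to B5 and at 8.28, 8.27, 8.23, 7.93 and 6.19 in V1 to V5. All baricitinib arrays but B2 were above every vehicle array, with a difference of 1.08 (0.68 without V5, adjusted p = 0.190). Epcam, the other of 2 measured, had 0.82 and 0.14 by its brightest probe set but -0.89 (-0.74 without V5, groups apart) on 1447899_x_at, so its direction is uncertain. Macrophage markers were negative in 3 of 8 (median 0.38, or -0.07 without V5), with Lyz2 at 0.93 (0.39 without V5) and Cd68 at 0.85 (0.22). Mertk was at 0.81 (0.67 without V5), with every baricitinib array above every vehicle array. Csf1r, the receptor gene for a macrophage growth factor, was at -0.73 (-0.74 without V5). Its probe set 1419873_s_at gave -0.79 (-0.92 without V5), but 1423593_a_at gave 0.54 (0.36 without V5). B cell markers were negative in 4 of 4 measured of 5 listed (median -0.78), with Ms4a1 at 2.70 to 3.46 on the baricitinib arrays and 3.09 to 7.27 on the vehicle arrays, highest on V5, and Cd79a at -0.79.

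By each array's median over a marker list, dendritic cell markers were at 6.35 to 7.27 in baricitinib treated and 5.52 to 7.05 in vehicle control skin. Macrophage markers were at 8.96 to 9.68 and 7.84 to 9.59, B cell markers at 4.34 to 4.60 and 4.66 to 5.73, and Langerhans cell markers at 9.84 to 10.84 and 7.46 to 10.34. Only the B cell ranges were apart, narrowly (4.60 against 4.66), and the vehicle value of 5.73 was that of V5. The B cell markers were also dim, with 18.8% (Ms4a1) to 43.2% (Cd79b) of probe sets dimmer by mean. The part of cell composition in the class II values was not tested. The skin markers, which check the tissue label, were at medians of 12.67 to 12.86 and 11.98 to 12.95, and 2 of 5 were negative, with Krt10 at -0.46 and Trp63 at 0.59.

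**Figure D4:**
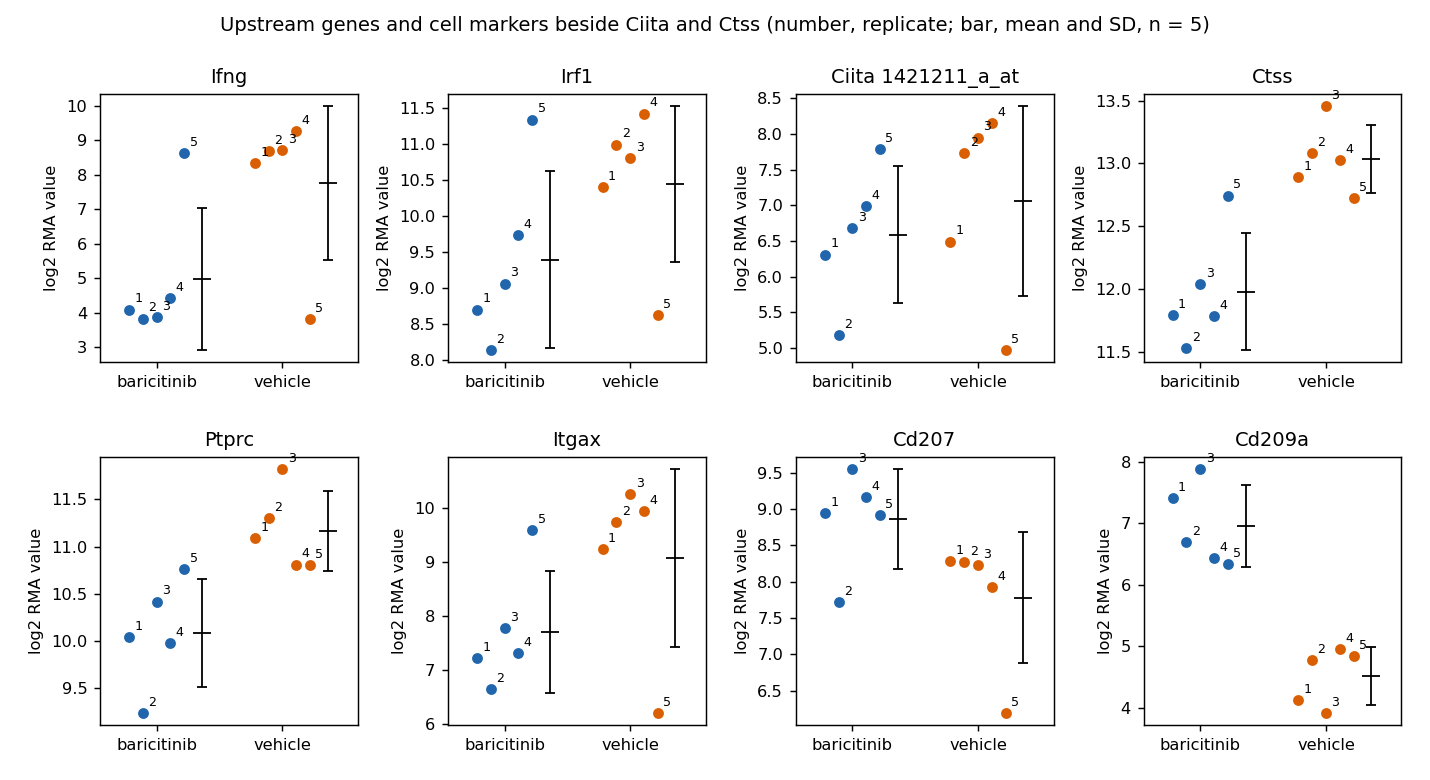
Log2 RMA values of Ifng, Irf1, Ciita, Ctss and of 4 cell markers, with 1 numbered point per replicate and the mean and SD (n = 5) beside each group. B5 and V5 change sides for Ifng, Irf1 and Itgax, whereas Cd209a keeps the groups apart (6.34 to 7.88 against 3.91 to 4.96). V5 is the array that correlated least with the others.

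Weighting the arrays by their quality, an alternative fit in limma, gave V5 a weight of 0.03 and B1 a weight of 5.43. In that fit 4 of the 17 probe sets passed the adjusted threshold, all lower under baricitinib, beside 10.6% of all probe sets that passed lower and 10.9% higher. They were Ctss (-1.19, adjusted p = 0.00983), H2-Ab1 1450648_s_at (-0.80, 0.0260), H2-DMa 1459872_x_at (-1.01, 0.0319) and the dim H2-Aa 1443783_x_at (-0.43, 0.0351). Ciita, Cd74, H2-Eb1, H2-Oa and H2-Ob did not pass in it, nor did the other probe sets of H2-Aa, H2-Ab1 and H2-DMa. Of the latter, H2-Aa 1452431_s_at (0.41), H2-Ab1 1451721_a_at (0.20) and H2-Ab1 1425477_x_at (0.09) had positive differences. H2-Aa 1435290_x_at (-0.38), H2-Aa 1438858_x_at (-0.41) and H2-DMa 1422527_at (-0.49) had negative ones. Of the named companions, Ifng (-3.94), Itgax (-2.17) and Ptprc (-1.23) passed lower, and Cd209a (2.68) and Marchf8 (0.73) passed higher, among others.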

How the data were processed

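Skin RNA of 10 mice, after amplification and biotin labelling (NuGen), was read on Affymetrix mouse arrays, 1 per mouse. The authors made the deposited log2 values with RMA (background correction, quantile normalisation and probe set summary) on this experiment alone, with no version given in the sources used here. RMA brings arrays toward a common distribution, so array means could not show a poor sample, although the SD of V5 was 2.28 log2 and that of the others 2.71 to 2.79. Arrays carry no read depth, and their number limits the precision.

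Groups and replicate numbers came from the titles. Of the probe sets, 64 controls were set aside and 45037 tested; 34945 had 1 gene symbol. The groups were compared by lmFit and eBayes in limma 3.58.1 under R 4.3.3, two-sided, with Benjamini-Hochberg adjusted p over all tested probe sets and a threshold of 0.05, and the fit was tested on simulated data. The simulated noise was independent and of the same spread on every array, so that test does not cover an outlying array such as V5. Members and gene lists were chosen with earlier results of these data known. Named were every member probe set, of each companion list the 2 genes with the largest difference (a gene was read by its brightest probe set), and the 6 genes most like the members' pattern. H2-DMb2 1419744_at, Epcam 1447899_x_at, Csf1r, Mertk, Rfx5 and Marchf1 were added after their values were seen. The lists held 70 genes, of which 66 were measured. Suffixes _x_at and _s_at mark probe sets that may also match other transcripts. C3H/HeJ and C57BL/6J differ in class II haplotype, and an effect of this on probe binding was not tested. Alternatives were each array left out, the replicate block, array weights, other normalisations, a filter at a mean of 5 log2, trend and robust settings, the 3'/5' gap as covariate, and removal of _x_at and _s_at probe sets. P-values set each difference against the spread between these arrays, 1 per mouse. That spread holds differences between mice and in array quality, which were not separated.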

Additional observations from a re-analysis of the deposited data

Results flagged for a closer look

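Single arrays lay far from the other 4 of their group for 5 of the 34 group and probe set combinations tested, judged by the gap to the nearest array as a share of the group's range (threshold 0.71). Chance marks about 1 in 20. On V5 this share was 0.752 for H2-Aa 1452431_s_at (6.57 log2), 0.763 for Cd74 (11.17), 0.817 for H2-DMa 1422527_at (5.63) and 0.736 for H2-DMa 1459872_x_at (5.06), each the lowest vehicle value. On B2 it was 0.723 for H2-Oa (6.79), the lowest baricitinib value.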

How the results depend on the processing

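The count of all probe sets past the threshold was 0 in the main comparison (6680 at an unadjusted p under 0.05), ranged from 0 to 848 with single arrays left out (848 without V4, 12 without B5), and was 9676 with array weights. The member count was 0 in each of these and 4 with array weights. The median over member genes was -0.39 to 0.06 with single arrays left out, above 0 only without B2. Differences that changed sign with 1 array left out ranged from -0.42 to 0.059 for H2-Ob, -0.011 to 0.94 for H2-Ab1 1425477_x_at, -0.12 to 0.45 for Cd74 and -0.49 to 0.58 for H2-DMa 1422527_at. Array weights gave -0.073 for Cd74 and -0.49 for H2-DMa 1422527_at. Cyclic loess gave 0.081 for H2-Aa 1443783_x_at and -0.012 for H2-DMa 1422527_at. With the 3'/5' gap as covariate the differences were -0.80 for H2-Aa 1452431_s_at, -1.11 and -0.95 for H2-Ab1 1451721_a_at and 1425477_x_at, -0.39 for H2-Eb1, -0.41 for Cd74, -1.02 for H2-DMa 1422527_at and 0.079 for H2-Ob. On the 9 arrays without V5, an alternative chosen after seeing the data, they were -0.46, -0.79, -0.79, -0.26, -0.28, -0.75 and 0.15 in that order. The gap hardly varied among baricitinib arrays, so this adjustment rests on the vehicle arrays. For Ctss it gave -1.02. The cause of these shifts was not tested.

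The replicate number as a block gave 0 calls and 5441 probe sets at an unadjusted p under 0.05. The deviations of same-numbered arrays from their group means correlated at r of -0.23 to 0.09. V5 entered the vehicle means, so these values cannot show whether same-numbered arrays share more than a number. A mean of at least 5 log2 left 15 member probe sets, and removal of _x_at and _s_at probe sets left 10, with 0 called in both.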
